A study of Mus musculus with 2 samples.

Results

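The 10 glutathione genes Gclc, Gss, Gsr, Gpx1, Gpx4, Gsta4, Gstm1, Gstm2, Gsto1 and Gstt2 were compared between wild-type mouse embryonic stem cells (ESCs) and ESCs with a point mutation in Sox2. They were taken by symbol from a table of 24532 genes, and all 10 were found and read in both cell types. The wild-type sample was the mouse ESC line E14, grown in serum with leukemia inhibitory factor. The sample labelled Sox2 T258A, called E14-Sox2 TA/WT in the study, was a clone of E14 in which 1 Sox2 allele had been edited with CRISPR/Cas9 and a single-stranded donor, so that alanine took the place of threonine at residue 258. Per the study's methods, that clone was selected and kept with the inhibitors PD0325901 and CHIR99021 (2i), which were taken away before cells were used. Each genotype had 1 RNA-seq library, so genotype, clone and culture history cannot be told apart, and no difference below has a replicate check or a p-value.

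Glutathione is a tripeptide thiol that cells hold at high concentration as their main soluble reductant. Glutamate-cysteine ligase (Gclc with its modifier Gclm) and then glutathione synthetase (Gss) build it, and glutathione reductase (Gsr) returns its oxidized form to use. Glutathione peroxidases spend it on hydrogen peroxide and lipid peroxides, and glutathione transferases attach it to reactive compounds or carry out related thiol reactions, with classes named by Greek letters such as alpha, mu, omega and theta.

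The sequences that set some of these genes apart are given first. Gpx1 and Gpx4 are selenoproteins, in which a TGA codon that elsewhere ends translation is read as selenocysteine at the active site. The coding strand around that codon was read from the reference transcripts (GENCODE M21, GRCm38), with the selenocysteine codon in capitals. It is codon 47 of Gpx1, at chr9:108339421-108339483 on the plus strand, and codon 129 in the longest matched Gpx4 transcript, at chr10:80054707-80054769 on the plus strand.
Gpx1: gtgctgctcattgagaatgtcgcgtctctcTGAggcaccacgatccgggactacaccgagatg
Gpx4: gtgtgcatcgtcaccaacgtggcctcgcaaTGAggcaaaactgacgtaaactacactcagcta
In 1 global alignment of the whole coding sequences, of 603 and 759 bases, 44.0% of aligned columns were identical. Its longest identical run, 5 bases, was shorter than the TGAggca that both printed stretches share. That alignment thus did not line up the selenocysteine codons, and it does not measure the likeness around them.

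Gstm1 and Gstm2 are mu class transferases in a cluster of closely related genes on chromosome 3, and their likeness bears on how surely reads can be given to each. A stretch of 120 coding bases that starts at coding base 127 is shown for both and for their neighbour Gstm3, on the minus strand, with capitals at bases that differ from Gstm1. It spans an intron, from chr3:108016532-108016934 for Gstm1, chr3:107985260-107985668 for Gstm2 and chr3:107967779-107968186 for Gstm3 (GRCm38).
Gstm1: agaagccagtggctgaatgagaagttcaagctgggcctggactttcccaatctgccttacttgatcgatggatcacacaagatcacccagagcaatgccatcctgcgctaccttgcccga
Gstm2: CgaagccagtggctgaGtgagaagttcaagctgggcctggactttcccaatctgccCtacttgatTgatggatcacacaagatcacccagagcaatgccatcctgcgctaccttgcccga
Gstm3: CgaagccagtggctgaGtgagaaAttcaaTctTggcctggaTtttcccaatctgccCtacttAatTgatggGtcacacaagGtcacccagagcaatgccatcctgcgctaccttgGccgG
The stretch was chosen, moved to the start of a codon, as the one where Gstm1 and Gstm2 differ least. In it Gstm2 differed from Gstm1 at 4 bases and Gstm3 at 13, so these counts do not rank their likeness. Over the whole coding sequence of 654 bases, Gstm1 was 85.9% identical to Gstm2 and 89.5% identical to Gstm3, with longest identical runs of 60 and 112 bases.

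The E14 library held 60263536 counted reads and the Sox2 T258A library 44609228. Levels are given as TPM, a read value scaled for transcript length and library total, and the difference between genotypes as the log2 ratio of TPM, Sox2 T258A over E14, with a 95% interval from the read counts that covers counting error only. Following the study, a gene was called when it reached 10 TPM in either library and differed by more than 2-fold. Sox2 itself, whose level does not check a point mutation, had 372.5 TPM in E14 and 274.2 TPM in Sox2 T258A cells. The pluripotency markers checked (Pou5f1, Nanog, Sox2, Zfp42, Esrrb, Dppa5a, Utf1 and Tdgf1) each passed the filter of 10 TPM and summed to 12109 TPM in E14 and 9073 TPM in Sox2 T258A cells, with Nanog alone past 2-fold at a log2 ratio of -1.07. Markers of other cell types did not move one way. The 6 fibroblast genes summed to 9.75 TPM in E14 and 8.07 TPM in Sox2 T258A cells, with Dcn and Lum at 0 in both libraries and none past the filter, but Pdgfrb had 1151 reads in E14 and 327 in Sox2 T258A cells, whereas Col3a1 had 15 and 151 and Col1a2 had 43 and 109. The 5 trophoblast genes summed to 54.3 and 31.9 TPM, with Elf5 at 0 in both. Most of that sum was Tfap2c, at 50.9 TPM in E14 and 16.1 TPM in Sox2 T258A cells, whereas Cdx2 was at 0.474 and 12.2 TPM. The 6 primitive endoderm markers were each lower in Sox2 T258A cells, with a sum of 45.8 TPM in E14 and 18.1 TPM in Sox2 T258A cells. The part of these other cells in the results below was not tested. In such bulk samples, fewer cells expressing a gene and less RNA per cell cannot be told apart.

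The 10 genes were chosen with earlier results of these data known. From the same libraries the study had named glutathione-mediated detoxification among its most altered pathways, so the shares below are not independent support. Of the 10 genes, 3 were more than 2-fold lower in Sox2 T258A cells (Gpx4, Gstm1 and Gstm2) and none was more than 2-fold higher. Over all 9094 genes past the same filter, 4.07% were lower and 4.17% higher by that measure, or 8.24% in either direction. The whole counting interval lay past 2-fold for Gpx4 and Gstm2, 2 of the 10, against 3.14% of all genes. By direction alone, 7 of the 10 were lower, against 42.7% of all genes past the filter. The median log2 ratio of the 10 was -0.46, against 0.04 over all genes whose TPM averaged 1 or more over the libraries, the level used for every median below. Transcript length moved with these ratios across the table, and 7 of the 10 genes have transcripts under 1500 bases, a length chosen after values were seen. Among genes that short, 8.13% of 1612 were more than 2-fold lower and 65.5% were lower at all. With the trend on GC content and transcript length over all genes taken out, the median of the 10 was -0.23, and 1 of the 10 (Gstm2) was still more than 2-fold lower, against 3.21% of all genes.

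**Figure D1:**
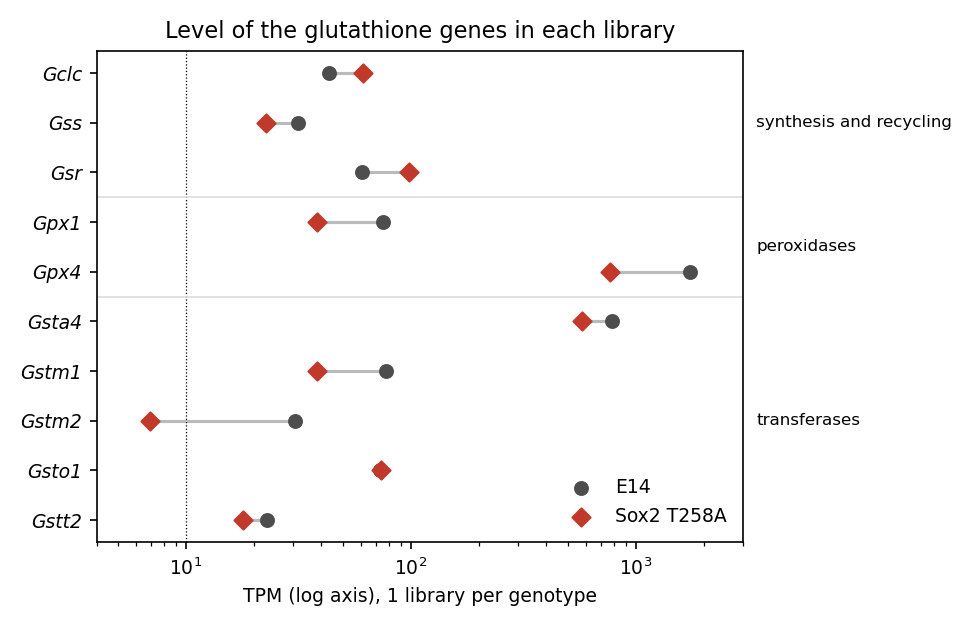
TPM of each gene (horizontal log axis) in the E14 library (grey circles) and the Sox2 T258A library (red diamonds), grouped by role, with 1 library per genotype and the filter level of 10 TPM dotted. Gpx4 and Gsta4 stand far above the rest in both libraries, and the widest gap is that of Gstm2.

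The 3 enzymes of synthesis and recycling did not move one way. Gclc and Gsr were higher in Sox2 T258A cells and Gss was lower, and none passed 2-fold. Their summed level was 135 TPM in E14 and 182 TPM in Sox2 T258A cells, whereas the 2 peroxidases and the 5 transferases each summed to less in Sox2 T258A cells.

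Gclc, the catalytic subunit of the ligase that carries out the rate-limiting step (GRCm38 chr9:77754535-77794485, plus strand, 16 exons), had 4649 reads and 43.1 TPM in E14 and 4442 reads and 61.4 TPM in Sox2 T258A cells. Its log2 ratio was 0.51 (interval 0.45 to 0.57), and 0.43 with the GC and length trend removed. Its partner Gclm, the modifier subunit, went the other way, from 83.9 TPM in E14 to 68.8 TPM in Sox2 T258A cells, a log2 ratio of -0.29. The ratio of Gclc to Gclm TPM was thus 0.513 in E14 and 0.892 in Sox2 T258A cells, and the difference between the log2 ratios, 0.80 (interval 0.71 to 0.89), exceeded counting error.

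Gss, which adds glycine in the last step of synthesis (chr2:155563181-155592810, minus strand, 13 exons), had 1938 reads in E14 and 931 in Sox2 T258A cells, or 31.3 and 22.6 TPM. Its log2 ratio was -0.47 (interval -0.59 to -0.36), and -0.22 with the GC and length trend removed. Exons of Gss overlap those of Acss2 and of antisense genes on the other strand over 1102 bases. Acss2, an acetyl-CoA synthetase, had 24.3 TPM in E14 and 10.8 TPM in Sox2 T258A cells, and how strand entered the counting is not given in the sources used here, so the value of Gss is uncertain.

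Gsr, the NADPH-dependent reductase (chr8:33652523-33698163, plus strand, 13 exons), had 5104 reads in E14 and 5536 in Sox2 T258A cells, the only one of the 10 with more reads in the smaller library. Its level was 60.6 TPM in E14 and 98.2 TPM in Sox2 T258A cells, and its log2 ratio, 0.69 (interval 0.64 to 0.75), was the highest of the 10. With the GC and length trend removed that ratio was 0.73. Genes of chromosome 8 had a median log2 ratio of 0.25, with 499 of 702 higher in Sox2 T258A cells. For the other chromosomes that carry one of the 10 genes, the medians lay between -0.00 on chromosome 9 and 0.08 on chromosome 3. The part of the chromosome in the value of Gsr was not tested.

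Both peroxidases were lower in Sox2 T258A cells. Gpx4, which reduces lipid hydroperoxides within membranes and so holds back ferroptosis (chr10:80047166-80056439, plus strand, 7 exons), had 52507 reads and 1732 TPM in E14 and 15481 reads and 765 TPM in Sox2 T258A cells. It was the highest of the 10 in both libraries and in E14 lay at the 99.5th percentile of genes with a TPM above 0. Its log2 ratio of -1.18 (interval -1.21 to -1.15) lay wholly past 2-fold, but was -0.79 with the GC and length trend removed. Of the 100-base stretches in its transcripts, 48.4% also occur in the annotated copies Gpx4-ps2 or AC122253.3, neither of which is a row of the table, so its reads may include theirs.

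Gpx1, the cytosolic peroxidase that acts on hydrogen peroxide (chr9:108338903-108340343, plus strand, 2 exons), had 2466 reads in E14 and 845 in Sox2 T258A cells, or 74.9 and 38.3 TPM. It was just short of the threshold, with a log2 ratio of -0.97 (interval -1.08 to -0.85) that spans 2-fold, and -0.54 with the trend removed. Gpx4 made up 90.3% of the TPM of the 8 glutathione peroxidase genes in E14 and 86.0% in Sox2 T258A cells. The log2 ratios of Gpx4 and Gpx1, Gpx4 minus Gpx1, differed by -0.21 (interval -0.33 to -0.10). Gsr and Gpx4 lay in opposite directions, and their log2 ratios, Gsr minus Gpx4, differed by 1.87 (interval 1.81 to 1.93), or by 1.52 with the trend removed.

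**Figure D2:**
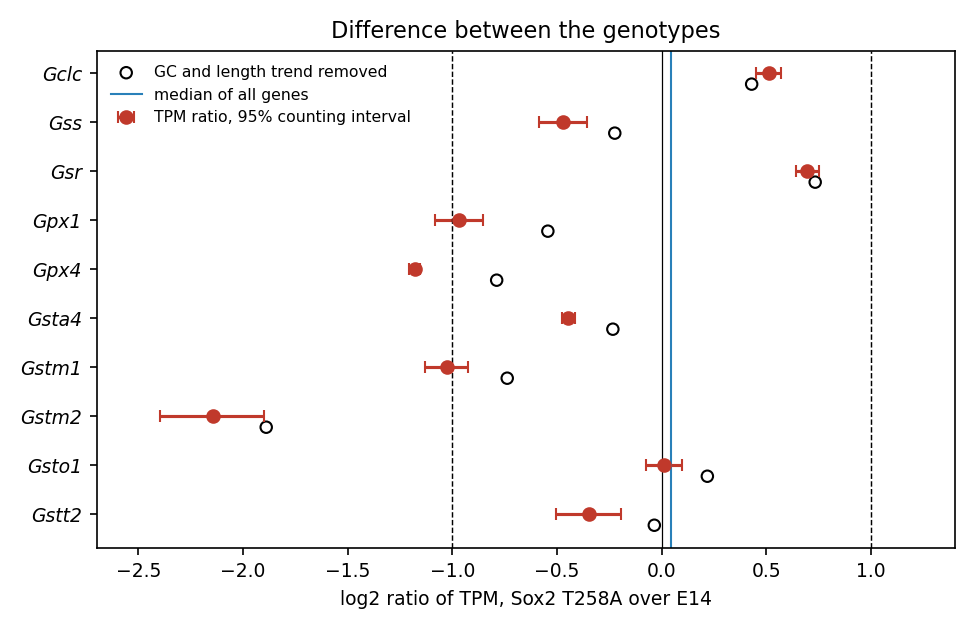
Log2 ratio of TPM, Sox2 T258A over E14, for each gene (filled points) with its 95% counting interval, and the ratio with the GC and length trend removed (open circles). Dashed lines mark 2-fold and the blue line the median of all genes; Gstm2 is past 2-fold by both measures, and Gpx4 and Gstm1 only by the first.

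The 5 transferases ranged from a log2 ratio of -2.15 for Gstm2 to 0.01 for Gsto1. Gsta4, an alpha class enzyme that conjugates 4-hydroxynonenal from lipid peroxidation (chr9:78182774-78209349, plus strand, 7 exons), had 23677 reads and 785 TPM in E14 and 11649 reads and 576 TPM in Sox2 T258A cells. Its log2 ratio was -0.45 (interval -0.48 to -0.41), and -0.23 with the trend removed. Gsta4 alone held 54.8% of the TPM of the 28 listed transferase genes in E14 and 55.3% in Sox2 T258A cells. That list spans several classes and also holds Mgst genes, Hpgds, Ltc4s, Ptges and Gstcd. The share of Gsta4 in it hardly moved, while the list's sum was 1432 TPM in E14 and 1042 TPM in Sox2 T258A cells. Gsta4 shared no 100-base stretch with another gene. Its coding sequence was 65.9% to 66.6% identical to those of the other alpha class genes.

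Gstm1, a mu class enzyme (chr3:108012255-108017973, minus strand, 8 exons), had 3162 reads in E14 and 1040 in Sox2 T258A cells, or 77.6 and 38.1 TPM. Its log2 ratio of -1.03 (interval -1.13 to -0.93) passed 2-fold, but the interval spans it, and the value was -0.74 with the trend removed. Among the 10 it ranked 3 by TPM in E14 and 7 in Sox2 T258A cells. Of its 100-base stretches, 7.73% occur elsewhere, in Gstm3 and in copies that are not rows of the table, and with the reads of Gstm3 added its log2 ratio was -1.20.

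Gstm2, also of the mu class (chr3:107981702-107986453, minus strand, 8 exons), had 1011 reads and 30.6 TPM in E14 and 154 reads and 6.93 TPM in Sox2 T258A cells, 4.42-fold lower. Its log2 ratio of -2.15 (interval -2.40 to -1.90) was the lowest of the 10, and was -1.89 with the trend removed. Its coding sequence was 85.9% identical to that of Gstm1, but it shared no 100-base stretch with Gstm1. Of its 100-base stretches, 0.62% occur elsewhere, in Gm12499. The log2 ratios, Gstm2 minus Gstm1, differed by -1.12 (interval -1.38 to -0.85). The share of Gstm2 in mu class TPM was 16.5% in E14 and 8.37% in Sox2 T258A cells, whereas that of Gstm1 was 41.7% and 46.0%.

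Gsto1, an omega class enzyme with thiol transferase activity (chr19:47854970-47864790, plus strand, 6 exons), had 2701 reads in E14 and 1823 in Sox2 T258A cells, or 72.9 and 73.4 TPM. Its log2 ratio of 0.01 (interval -0.08 to 0.10) did not differ from 0 beyond counting error, and its sign turned with the scaling of the libraries. Gstt2, a theta class enzyme (chr10:75831114-75837424, minus strand, 5 exons), had 985 reads and 22.8 TPM in E14 and 518 reads and 17.9 TPM in Sox2 T258A cells. Its log2 ratio was -0.35 (interval -0.50 to -0.19), and -0.04 with the trend removed.

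Whole classes were then set beside the named genes, with lists chosen with earlier results of these data known. Of genes at a mean of 1 TPM or more, all 7 of the mu class and all 3 of the theta class were lower in Sox2 T258A cells. So were 19 of the 21 listed transferases and 6 of 7 glutathione peroxidases in all, against 46.8% of all genes. With the trend removed, the mu, theta and peroxidase counts stood at 7, 3 and 6, and 16 of the 21 transferases were lower. Among genes past the filter of 10 TPM, a smaller set, 41.5% were lower with the trend removed. The counts include values near 0, such as Gstt2 at -0.04 and Gpx7 at -0.03. Gstm3 was the lowest, with 553 reads and 14.6 TPM in E14 and 41 reads and 1.61 TPM in Sox2 T258A cells, a log2 ratio of -3.18. Gstm6 had a log2 ratio of -1.82, Gstm4 of -0.98, Gstm7 of -0.76 and Gstm5 of -0.43. Gstm6 and Gstm7 did not reach the filter of 10 TPM. In the theta class, Gstt1 had 21.8 TPM in E14 and 8.73 TPM in Sox2 T258A cells, and its log2 ratio was -1.32. The difference in log2 ratio, Gstt1 minus Gstt2, was -0.97 (interval -1.25 to -0.69).

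The genes around these clusters, within 250 kb of Gstm1 or Gstt2, were read as a local comparison. Around the mu class genes, whose median log2 ratio was -1.03, 8 other genes at that mean level had a median of 0.28, and 7 of them were higher in Sox2 T258A cells. They included Gnai3 at 0.44, Ampd2 at 0.16 and Psma5 at 0.08. Around the theta class genes, whose median was -0.52, the 12 other genes had a median of -0.70, and 9 of them were lower. Of these 9, Ddt and Mif turned positive with the trend removed, at 0.15 and 0.02. Derl3 at -1.45, Mmp11 at -1.30 and Chchd10 at -1.20 passed the filter of 10 TPM and were more than 2-fold lower. With the trend removed they were at -1.08, -1.03 and -0.74. None of the 12 was past the filter and more than 2-fold higher. Of all genes at that mean level, 319 of 581 on chromosome 3 were higher, and 286 of 616 on chromosome 10 were lower. Around the mu class genes, all 7 higher genes lay on 1 side, beyond Gstm4. The 1 lower gene there lay at the other end beside Gstm5.

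**Figure D3:**
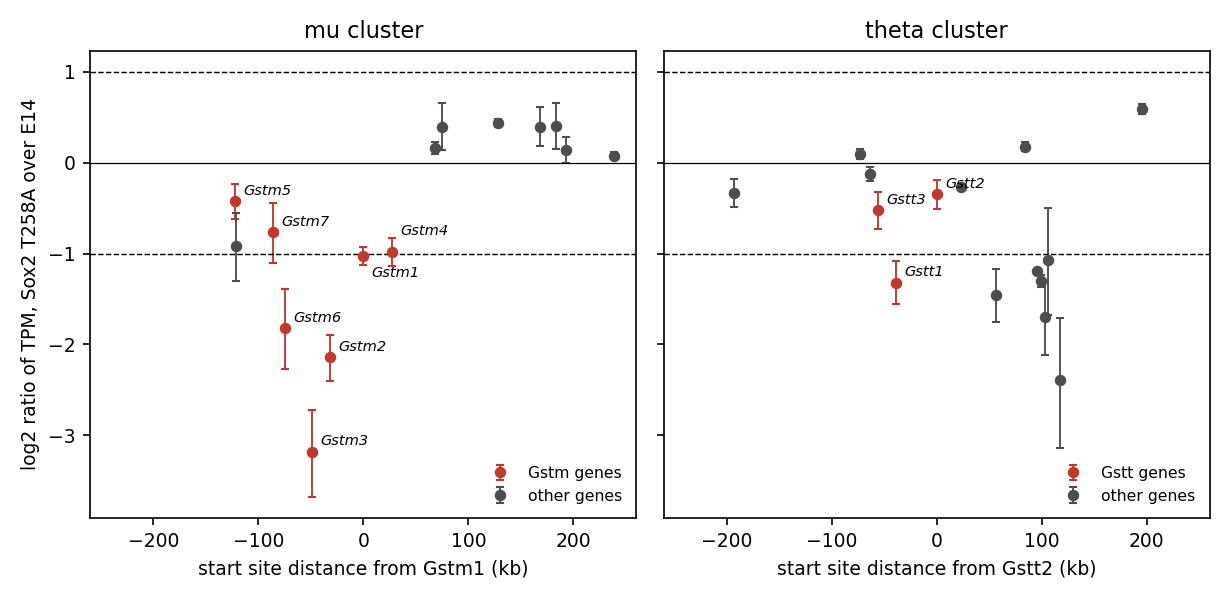
Log2 ratio of TPM, Sox2 T258A over E14, with 95% counting intervals, against the distance of each start site from that of Gstm1 (left) or Gstt2 (right) in kb, for genes whose TPM averaged 1 or more. The 7 Gstm genes (red) all lie below 0 and 7 of 8 other genes (grey) above it, whereas 9 of 12 other genes around the Gstt genes also lie below 0.

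The rest of the pathway was described from 70 further listed genes, of which 69 were in the table and 46 passed the filter. Of these, 6 were more than 2-fold lower in Sox2 T258A cells and 1 was more than 2-fold higher, beside the shares of 4.07% and 4.17% over all genes. Their median log2 ratio was -0.29, and -0.18 with the trend removed. The 1 higher gene was Gpx8, a peroxidase of the endoplasmic reticulum, with 6.73 TPM in E14 and 14.3 TPM in Sox2 T258A cells. Its log2 ratio of 1.09 (interval 0.83 to 1.34) spans 2-fold, and the call was lost by FPKM, by counts scaled to the total and with a pseudocount of 1.

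Of 10 genes of the gamma-glutamyl cycle and cysteine supply past the filter, 3 were more than 2-fold lower and none higher, beside 4.07% lower over all genes. Chac1, which breaks glutathione down inside the cell, had 89.9 TPM in E14 and 15.0 TPM in Sox2 T258A cells, a log2 ratio of -2.58. Ggt1, which starts its breakdown outside the cell, had 14.6 TPM in E14 and 2.64 TPM in Sox2 T258A cells. Cth, which makes cysteine from cystathionine, had 228 TPM in E14 and 70.9 TPM in Sox2 T258A cells. Whereas Gclc was higher in Sox2 T258A cells, of the 12 genes of this list whose TPM averaged 1 or more 10 were lower, beside 46.8% of all genes. Ggct at 0.11 and the abundant Lap3 at 0.04 were the exceptions.

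**Figure D4:**
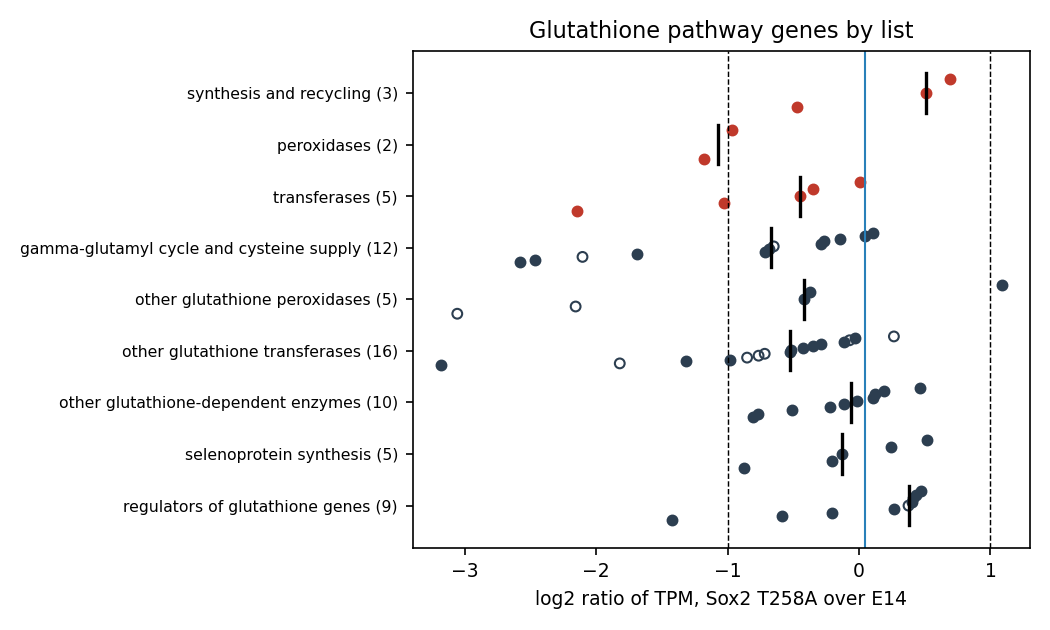
Log2 ratio of TPM, Sox2 T258A over E14, for genes whose TPM averaged 1 or more, by list, with the number of genes in brackets. The 10 genes described here are red and other pathway genes dark blue, open circles did not reach the filter, black bars are list medians, dashed lines mark 2-fold and the blue line is the median of all genes; the regulators and the synthesis and recycling genes have medians above 0.

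Among the other peroxidases, Gpx3 had a log2 ratio of -0.42, and Gpx2, which did not reach the filter, had 261 reads in E14 and 21 in Sox2 T258A cells. Among the other transferases, the abundant Gstp1 was at -0.11, and Mgst1, at 0.27 (interval -0.05 to 0.58), was the highest. Mgst1 did not reach the filter either. None of 10 other glutathione-dependent enzymes and exporters past the filter was beyond 2-fold, from Hagh at -0.80 to Glrx2 at 0.46, with the most abundant, Adh5, at 0.19. None of the 5 genes that make selenoproteins, on which Gpx1 and Gpx4 depend, was beyond 2-fold either: Pstk was at -0.88, Sephs2 at 0.24 and Sepsecs at 0.52.

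Of 8 regulators past the filter, 1 was beyond 2-fold, which is near the 8.24% of all genes past 2-fold in either direction. Atf4, a stress-response factor that activates Chac1 and genes of amino acid metabolism, had 748 TPM in E14 and 279 TPM in Sox2 T258A cells, a log2 ratio of -1.42. Nfe2l2, which encodes the factor NRF2 that activates many glutathione genes, was at -0.21, its inhibitor Keap1 at 0.41 and the repressor Bach1 at 0.47. With the GC and length trend removed these were -0.23, 0.53 and 0.21. Of the other listed regulators, Nfe2l1 was at -0.58, Cul3 at 0.40, Maff at 0.27 and Mafg at 0.43. Mafk, which did not reach the filter, was at 0.38. The part of any regulator in the results above was not tested.

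Promoter windows from 250 bases before to 50 bases after the start site (RefSeq, GRCm38.p6) were searched on both strands for TGACNNNGC, the core of the antioxidant response element, TGATGNAA, the core of the C/EBP-ATF response element, and CATTGT, a Sox core. None of these motifs contains another. Gss, Gpx1, Gpx4, Gstm1, Gstm2 and Gsto1 had 10 windows between them, and none held any of these letters. Of all 32851 windows, 12.4% held TGACNNNGC, 3.97% TGATGNAA and 12.6% CATTGT. Gclc, Gsr, Gsta4 and Gstt2 were not searched. Of 87 windows of the other pathway genes, 15 (17.2%) held TGACNNNGC, 2 (2.30%) TGATGNAA and 5 (5.75%) CATTGT. Examples in Gclm and Chac1 are shown with the motif in capitals, on the opposite strand in both: Gclm at chr3:122245407-122245447 and Chac1 at chr2:119351033-119351072, both genes on the plus strand.
Gclm: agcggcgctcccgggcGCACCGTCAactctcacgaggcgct
Chac1: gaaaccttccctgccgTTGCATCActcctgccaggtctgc
A match is a description of these windows and not evidence of binding.

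By likeness of log2 TPM over the 2 libraries, the genes nearest to Gpx4 were Apoe (distance 0.26) and Rn45s (0.48). Those nearest to Gstm1 were Pdgfa and Cpt1a (0.04 each), and those nearest to Gstm2 were Cdx1 (0.06) and Tmem191c (0.18). With 2 libraries this likeness says only that level and ratio are close.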

How the data were processed

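PolyA RNA of 1 library per genotype was sequenced on a NovaSeq instrument. The authors deposited 1 gene table for mm10 (GRCm38) with raw, unscaled read counts per gene. In the deposited table FPKM is scaled for length and library fragments, and the deposited TPM for length and library total. The submitters' processing notes name bcl2fastq 2.20.0, Trimmomatic, HISAT2 2.1.0 and StringTie 2.1.3b, and the builds mm10 and hg19, without roles. The handling of strand and of reads with several matches is not given in the sources used here. No other column of sample values was found (0 left out).

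TPM ratios were taken without a pseudocount in Python 3.11.15. Their 95% intervals are exact Clopper-Pearson intervals of the read share placed on the TPM scale, and cover counting error only. Intervals of a difference in log2 ratio between genes are instead normal approximations from the read counts of both genes. Those too cover counting error only. A count of 0 allows up to 3 reads, or 0.0498 CPM in E14 and 0.0673 CPM in Sox2 T258A cells. The trend on GC content and transcript length was removed as medians in 20 bins each. Shared 100-base stretches and positions came from GENCODE M21. Alternatives used other filters, thresholds, pseudocounts and scalings, with TMM from edgeR 4.0.16 and size factors from DESeq2 1.42.0, and the scripts were tested on simulated data.

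All 10 genes are named, with pathway genes past the filter and 2-fold, and the extremes and the most abundant gene of each list. Relatives of the transferases, the 9 listed regulators, and the 2 nearest genes by TPM to each gene past 2-fold are named too. The genes and lists were chosen with earlier results of these data known. With 1 library per genotype no test was made.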

Additional observations from a re-analysis of the deposited data

How the results depend on the processing

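No paired analysis was possible because each genotype has 1 library and no test was made. For the same reason no library could be left out. The count of the 10 genes past 2-fold, 3 as reported, was 5 at 1.5-fold, 1 at 3-fold and 1 with the GC and length trend removed; under the other alternatives it was 2 to 4. Gstm2 was past 2-fold under 9 of 9 scalings and pseudocounts, Gpx4 and Gstm1 under 8 of 9 and Gpx1 under 4 of 9. The median log2 ratio of the 10, -0.46 as reported, was -0.60 by FPKM, -0.61 by counts scaled to the total and -0.23 with the trend removed. FPKM and counts scaled to the total moved the median of all genes to -0.10, a shift of -0.14. The sign was kept under 9 of 9 for each gene except Gsto1, which kept it under 3 of 9, between -0.13 and 0.22. Reads summed over the whole mu class gave -1.16 on the TPM scale of Gstm1 and -1.17 on that of Gstm2, from the same summed reads. The theta class sum gave -0.64 on the scale of Gstt2, and the alpha class sum -0.45 on that of Gsta4. These are values of the classes and not of the named genes. Adding Gstm3 reads to Gstm1 was chosen after seeing the data. The count of other pathway genes past 2-fold, 7 as reported, was 19 with no filter on TPM, 12 with a TPM of at least 1, 4 with a TPM of at least 20, 13 at 1.5-fold and 4 at 3-fold. The 1 higher gene among them, Gpx8, was also lost where the whole counting interval had to lie past 2-fold. The cause of these shifts was not tested, beyond the construction of each filter and threshold.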
